A study of Mus musculus with 6 samples.

Results

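Cathepsins are the peptidases of the lysosome, and cystatin C, made from Cst3, is a secreted inhibitor of the papain-like ones. The 10 genes described here are the rows of the deposited tables with the symbols Ctsa, Ctsb, Ctsc, Ctsd, Ctsh, Ctsk, Ctsl, Ctss, Ctsz and Cst3, out of 21936 genes listed. RNA came from macrophages sorted from mice in 2 groups of 3 libraries. In the group labelled CKO, the mice carried loxP-flanked Alkbh5 (ALKBH5flox/flox), Lyz2-Cre and APOE-/-. In the group labelled WT they carried ALKBH5flox/flox and APOE-/- without Cre, so by the labels both groups share the flanked allele, the Apoe deletion and a high-fat diet for 4 months. Lyz2-Cre puts Cre recombinase under the Lyz2 gene, which is active in macrophages, neutrophils and some other myeloid cells. Age, sex and the tissue the cells were sorted from are not given in the labels, which also do not say that the libraries came from separate animals. P-values therefore cover no more than the variation among these 6 libraries, and that variation may be purely technical.

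Most cathepsins are made as inactive precursors, carried to the lysosome largely by mannose 6-phosphate receptors, and cut there into active enzymes. Of the cathepsins here, 7 are papain-like cysteine peptidases, Ctsd is an aspartic peptidase and Ctsa is a serine carboxypeptidase. In macrophages they digest what the cell takes up and prepare peptides for MHC class II, and in atherosclerotic plaques the secreted cysteine cathepsins are known for cutting elastin and collagen of the artery wall. Cystatin C blocks the cysteine cathepsins outside the cell but not Ctsd or Ctsa.

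Levels are given as FPKM, that is reads divided by the gene's length and scaled by the library's total of reads assigned to genes. The depth was 15422154 to 17802617 assigned reads in the libraries labelled CKO and 16660206 to 18418903 in those labelled WT. Alkbh5, the targeted gene, was at 9.15, 8.61 and 8.50 FPKM in the libraries labelled CKO, against 3.77, 3.95 and 3.88 FPKM in those labelled WT. The gene that should be deleted was thus higher in the libraries labelled CKO, and groups are called here by their labels only. The value covers the whole gene and does not show the flanked exons alone. Apoe, deleted in both groups by the labels, was at 89.6 to 98.1 FPKM in the libraries labelled CKO and 1607 to 1665 FPKM in those labelled WT, where it ranked 14 of all genes. The Apoe values thus differ 17.2-fold between the groups and go against a deletion shared by both. Lyz2, the gene that carries Cre, was at 6405 to 6797 FPKM in the libraries labelled CKO and 14327 to 16231 FPKM in those labelled WT. All 10 macrophage markers looked up (Adgre1, Cd68, Csf1r and others) reached 1 FPKM, 5 of them at a higher level under the CKO label and 5 at a lower level. Their summed level was 9259 to 9687 FPKM in the libraries labelled CKO and 16439 to 18349 FPKM in those labelled WT, most of it Lyz2. Without Lyz2 the other 9 summed to 2836 to 2889.9 FPKM in the libraries labelled CKO and 2100.2 to 2119 FPKM in those labelled WT, the opposite direction. The test for single genes was limma on log2(FPKM + 1) with Benjamini-Hochberg adjustment over the 9953 genes that reached 1 FPKM in 3 libraries, called at an adjusted p under 0.05. All log2 differences are on that scale and are labelled CKO minus labelled WT.

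All 10 genes passed the filter, and all 10 were called. Ctsc, Ctsz and Ctsk were higher in the libraries labelled CKO, and Ctss, Ctsb, Ctsl, Ctsh, Ctsd, Ctsa and Cst3 were lower. The background has to be read beside these counts, since limma called 81.1% of all tested genes in either direction, with 30.5% higher and 50.5% lower in the CKO-labelled set. The 3 libraries of one group did not overlap the 3 of the other for any of the 10, which was also so for 82.5% of all tested genes. The count of 10 in 10 is therefore little above what most expressed genes showed, and the sizes and directions below carry more than the calls. The median log2 difference of the 10 genes was -0.49, beside -0.14 over all tested genes. With 3 libraries against 3, an exact two-sided permutation test cannot give a p under 0.1, and it gave 0.1 for each of the 10. In bulk RNA, fewer cells of a type and less RNA per cell cannot be told apart.

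**Figure D1:**
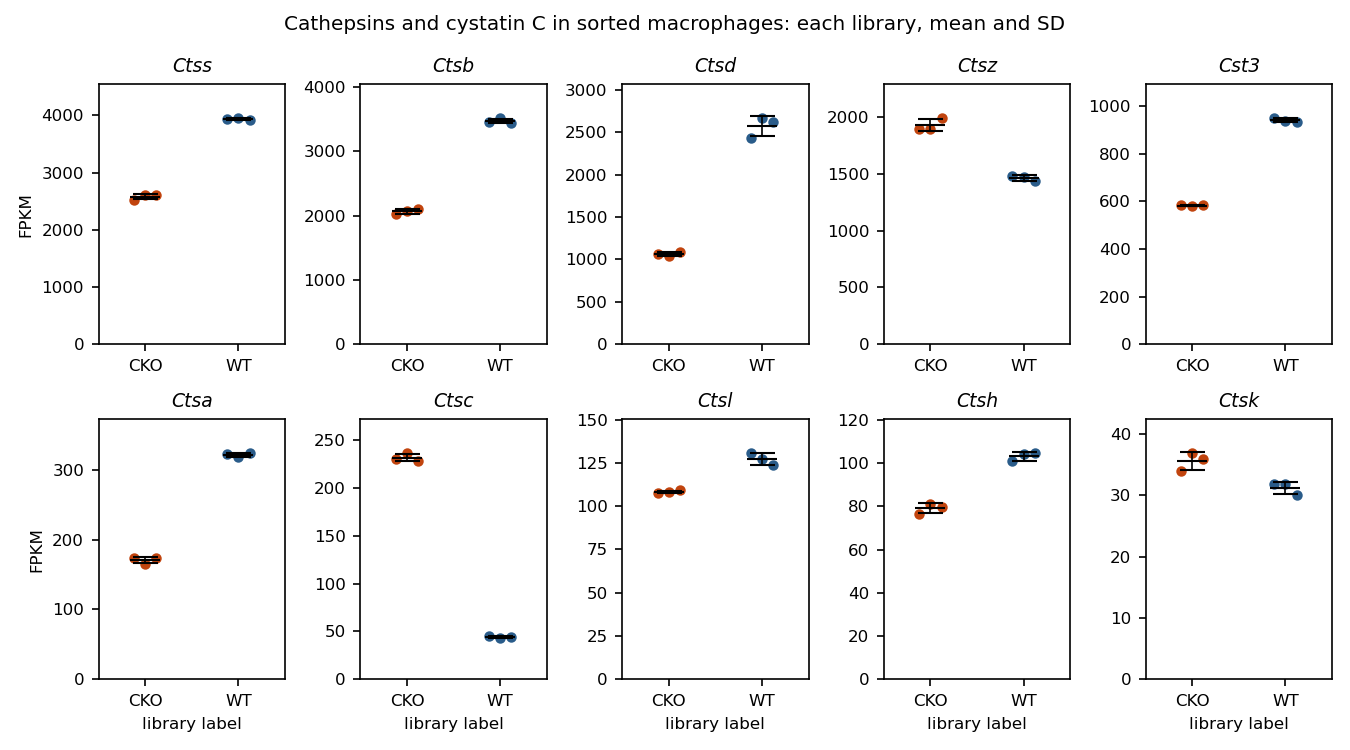
FPKM of the 10 genes in each library, with the libraries labelled CKO on the left and those labelled WT on the right of each panel. Each y axis starts at 0 and has its own scale, dots are libraries, and bars give the mean and SD over 3 libraries. Ctsz, Ctsc and Ctsk stand higher in the libraries labelled CKO and the other 7 genes stand lower, with no overlap in any panel.

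Ctss (chr3:95526786-95556403), a cysteine endopeptidase that stays active at neutral pH and cuts elastin and the invariant chain of MHC class II, had the highest FPKM of the 10 in both groups. It was at 2529, 2603 and 2605 FPKM in the libraries labelled CKO, against 3932, 3949 and 3915 FPKM in those labelled WT. Every library labelled CKO was lower than every library labelled WT. The log2 difference was -0.61 ± 0.0233 (SE, adjusted p = 4.90e-10, limma). By FPKM, Ctss ranked 12 of all genes listed in the libraries labelled CKO and 5 in those labelled WT.

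Ctsb (chr14:63122462-63145923), a cysteine peptidase that also removes dipeptides from the end of its substrates, was second in both groups. It was at 2030.4, 2065 and 2107 FPKM in the libraries labelled CKO, against 3452, 3511 and 3446 FPKM in those labelled WT. The groups stood well apart, and the libraries labelled CKO were the low ones. Its log2 difference was -0.75 ± 0.0242 (SE, adjusted p = 1.14e-10, limma). The ratio of Ctsb to Ctss FPKM was 0.802 ± 0.00783 in the libraries labelled CKO and 0.882 ± 0.00589 in those labelled WT (SD, n = 3 each), without overlap. Ctsb shares 12.8% of its exon bases with Fdft1 on the opposite strand, a gene at 3.74 FPKM in the libraries labelled CKO and 6.16 FPKM in those labelled WT, far under the level of Ctsb.

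Ctsl (chr13:64359337-64370890), a cysteine endopeptidase that cuts elastin, collagen and, in the thymus, the invariant chain, was at 107, 108 and 109 FPKM in the libraries labelled CKO, against 131, 127 and 124 FPKM in those labelled WT. The libraries labelled CKO were lower by a narrow margin, without overlap. The log2 difference was -0.23 ± 0.0293 (SE, adjusted p = 2.09e-05, limma). Scaling the libraries by the median of ratios instead moved the median log2 difference of all tested genes from -0.14 to 0.01. Ctsl was then at -0.05 with an adjusted p of 0.183 in limma. With quantile normalization it was at -0.31 and was called, so its call depends on the scaling. An antisense gene, Gm47123, covers 26.8% of the Ctsl exon bases and is not among the genes listed. Reads of the 2 cannot be told apart if they were counted without strand. Gm49230, a processed pseudogene on the same strand that is also not listed, shares 6.09% of the Ctsl exon bases.

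Ctsk (chr3:95499256-95509362), a collagen-cutting cysteine peptidase best known from osteoclasts and also made by plaque macrophages, had the lowest FPKM of the 10 in both groups. It was at 34.0, 36.9 and 36.0 FPKM in the libraries labelled CKO, against 31.8, 31.8 and 30.1 FPKM in those labelled WT. The libraries labelled CKO were higher without overlap, though the gap between the nearest libraries was small. Its log2 difference of 0.19 ± 0.0404 had the weakest support of the 10 (SE, adjusted p = 0.00134, limma), and it was 0.36 with the median of ratios. Of 9 osteoclast markers looked up, 5 reached 1 FPKM, with 1 up and 3 down in the CKO-labelled set. Their summed level was 49.1 to 51.8 FPKM in the libraries labelled CKO and 200 to 205 FPKM in those labelled WT, and most of that gap was 1 gene, Atp6v0d2, which averaged 5.96 FPKM in the libraries labelled CKO and 149 FPKM in those labelled WT. Without it the other 8 summed to 43.8 to 45.3 FPKM in the libraries labelled CKO and 50.4 to 56.0 FPKM in those labelled WT. Calcr, Ocstamp, Oscar and Dcstamp stayed under 1 FPKM in every library. Acp5, the osteoclast marker that rose, averaged 26.4 FPKM in the libraries labelled CKO and 11.7 FPKM in those labelled WT. The part of these markers in the Ctsk result was not tested.

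Ctsk and Ctss lie next to each other on the plus strand of chromosome 3, at the GRCm38 positions given above, which like those of the other genes are as the deposited tables list them. They moved in opposite directions, so the ratio of Ctsk to Ctss FPKM was 0.0138 ± 0.000353 in the libraries labelled CKO and 0.00794 ± 0.000230 in those labelled WT (SD, n = 3 each). The sequences before their start sites are set side by side because the neighbours differ in direction, and each is the 250 bases upstream of the RefSeq start (GRCm38.p6), Ctsk at chr3:95498960-95499209 and Ctss at chr3:95526536-95526785, both on the plus strand. Capitals mark matches, on either strand, to the PU box GAGGAA, the interferon-stimulated response element (GAAA, any 2 bases, then GAAA), the GC box GGGCGG and the TATA box TATAAA, none of which overlap here.
Ctsk: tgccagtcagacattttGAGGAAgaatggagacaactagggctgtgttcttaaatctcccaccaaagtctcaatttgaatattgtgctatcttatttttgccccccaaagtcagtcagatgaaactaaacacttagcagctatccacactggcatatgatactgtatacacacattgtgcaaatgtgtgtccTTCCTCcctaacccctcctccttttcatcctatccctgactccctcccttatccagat
Ctss: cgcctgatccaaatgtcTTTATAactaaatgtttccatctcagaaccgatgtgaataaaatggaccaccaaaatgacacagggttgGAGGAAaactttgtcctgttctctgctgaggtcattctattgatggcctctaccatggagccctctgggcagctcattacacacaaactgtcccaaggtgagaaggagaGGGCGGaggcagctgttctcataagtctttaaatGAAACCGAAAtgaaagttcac
The Ctsk window held 2 PU boxes and no match to the other motifs. The Ctss window held 1 PU box, 1 GC box, 1 TATA box on the minus strand and, close to the start, 1 interferon-stimulated response element. Of 32851 RefSeq promoter windows of the same length, 23.3% held the PU box, 32.7% the GC box, 12.4% the TATA box and 2.98% the interferon-stimulated response element.

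Ctsc stood apart from the other 9 genes by the size of its difference. The gene (chr7:88278085-88310888) encodes dipeptidyl peptidase I, an exopeptidase that removes dipeptides from the front of proteins and is known for activating the serine proteases of neutrophils, mast cells and cytotoxic lymphocytes. It was at 230.5, 236 and 229 FPKM in the libraries labelled CKO, against 45.2, 43.2 and 43.7 FPKM in those labelled WT. All 3 libraries labelled CKO were far above all 3 labelled WT. The mean was 5.27 times as high, and the log2 difference was 2.37 ± 0.0300 (SE, adjusted p = 5.76e-14, limma). Among all tested genes, 8.35% were called and at least 1 log2 unit higher, and Ctsc was the only one of the 10 to reach that. By size of difference it ranked 240 from the top of the 9953 tested genes, and by FPKM it ranked 145 of all genes in the libraries labelled CKO and 962 in those labelled WT.

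Ctsz (chr2:174427493-174439039), also called cathepsin X, is a carboxypeptidase that removes single residues from the end of proteins and is abundant in monocytes and macrophages. It was at 1898, 1896 and 1989 FPKM in the libraries labelled CKO, against 1486, 1471 and 1435 FPKM in those labelled WT. The libraries labelled CKO were the high ones, opposite to the other 3 cathepsins of comparable level. Its log2 difference was 0.40 ± 0.0274 (SE, adjusted p = 9.66e-08, limma). Under quantile normalization, which gives every library the same set of values, Ctsz took the same rank in both groups and its log2 difference was 0, with an adjusted p of 1 in limma. By FPKM, Ctsz ranked 15 of all genes in both groups. Its rise is therefore a rise in FPKM and not in rank.

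The windows before Ctsc and Ctsz are shown with the same marks because these 2 genes, with Ctsk, were the ones that were higher. They are 250 bases upstream of the RefSeq starts, Ctsc at chr7:88277835-88278084 on the plus strand and Ctsz at chr2:174439040-174439289 on the minus strand (GRCm38.p6).
Ctsc: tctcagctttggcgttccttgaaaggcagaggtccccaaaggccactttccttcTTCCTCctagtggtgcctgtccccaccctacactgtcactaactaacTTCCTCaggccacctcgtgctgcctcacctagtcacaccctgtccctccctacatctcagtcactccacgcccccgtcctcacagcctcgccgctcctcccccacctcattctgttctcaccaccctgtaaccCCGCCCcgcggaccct
Ctsz: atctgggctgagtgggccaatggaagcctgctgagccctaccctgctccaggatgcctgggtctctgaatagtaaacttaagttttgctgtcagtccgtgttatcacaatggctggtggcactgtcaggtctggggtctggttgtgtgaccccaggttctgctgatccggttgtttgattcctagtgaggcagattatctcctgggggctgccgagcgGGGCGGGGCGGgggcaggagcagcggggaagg
The Ctsc window held 2 PU boxes and 1 GC box, all on the minus strand. The Ctsz window held 2 GC boxes that overlap each other and no match to the other motifs. Neither window, nor that of Ctsk, held the E-box CACGTG found before 3 of the genes that were lower. Among all RefSeq windows of this length 6.02% held it, and those of Ctss and Cst3, which were lower, did not.

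Ctsh (chr9:90054152-90076089), an aminopeptidase that also acts in surfactant processing in the lung, was at 76.5, 81.3 and 79.7 FPKM in the libraries labelled CKO, against 101, 104 and 105 FPKM in those labelled WT. The libraries labelled CKO were lower without overlap. The log2 difference was -0.38 ± 0.0324 (SE, adjusted p = 6.60e-07, limma), and it was called under both other scalings, at -0.20 with the median of ratios and -0.44 with quantile normalization. Of the cysteine cathepsins that remove residues from the ends of proteins, Ctsc and Ctsz were thus higher, and Ctsh and Ctsb were lower. Of the others, Ctsk was higher, and Ctss and Ctsl were lower.

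Ctsd (chr7:142375911-142388038), the main aspartic peptidase of the lysosome, fell furthest of the 10. It was at 1061, 1041 and 1090.05 FPKM in the libraries labelled CKO, against 2436, 2665 and 2617 FPKM in those labelled WT. The libraries labelled CKO were all at less than any WT-labelled library by a wide gap. Its log2 difference was -1.27 ± 0.0347 (SE, adjusted p = 2.55e-11, limma). Counted from the most negative difference, Ctsd ranked 624 of the 9953 tested genes. Ctsz and Ctsd changed places in the order of levels, and the ratio of Ctsz to Ctsd FPKM was 1.81 ± 0.0193 in the libraries labelled CKO and 0.570 ± 0.0345 in those labelled WT (SD, n = 3 each). In the annotation, 34.4% of the exon bases of Ctsd also belong to Gm49369, a gene on the same strand that is listed at 0 in every library. Whether reads in the shared bases were counted for Ctsd is not known. Its level, and the shares, ratios and order that use it, are uncertain to that extent.

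Ctsa (chr2:164832873-164841032) is a serine carboxypeptidase that also holds the sialidase Neu1 and the galactosidase Glb1 together in a protective complex. It was at 174, 165 and 173 FPKM in the libraries labelled CKO, against 324, 319 and 324 FPKM in those labelled WT. The libraries labelled CKO were low in each case, without overlap. The log2 difference was -0.91 ± 0.0283 (SE, adjusted p = 7.88e-11, limma). Ctsa shares 10.5% of its exon bases with Pltp on the opposite strand, which was at 14.3, 15.3 and 16.6 FPKM in the libraries labelled CKO and 75.5, 75.7 and 73.8 FPKM in those labelled WT. Whether reads were counted by strand is not given in the sources used here, so part of the Ctsa reads may come from Pltp, and the size of its difference is uncertain to that extent.

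Both partners of the complex were called lower too, beside 50.5% of all tested genes. Glb1 was at 37.7, 37.4 and 37.8 FPKM in the libraries labelled CKO, against 69.4, 70.0 and 68.1 FPKM in those labelled WT. Its log2 difference of -0.86 (adjusted p = 1.90e-10, limma) was close to that of Ctsa, and the ratio of Ctsa to Glb1 FPKM was 4.54 ± 0.103 in the libraries labelled CKO and 4.66 ± 0.103 in those labelled WT (SD, n = 3 each). Neu1 was at 45.8, 47.9 and 48.4 FPKM in the libraries labelled CKO, against 55.4, 52.3 and 54.4 FPKM in those labelled WT. Its log2 difference of -0.19 (adjusted p = 0.000498, limma) was lost with median-of-ratios scaling, where it was -0.01 with an adjusted p of 0.892. The ratio of Ctsa to Neu1 FPKM was 3.61 ± 0.172 in the libraries labelled CKO and 5.96 ± 0.128 in those labelled WT (SD, n = 3 each).

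The E-box CACGTG, a palindrome that TFEB and related factors are known to bind, was found in the 250 bases before a RefSeq start of Ctsd, Ctsa and Ctsl, that is in 3 of the 8 genes with a RefSeq entry and in 6.02% of the 32851 windows. Ctsb and Ctsh had no entry in the table used. The short stretches around the matches are shown because all 3 genes were lower, with the E-box in capitals and each read along the strand of the gene: Ctsd, with 2 matches, at chr7:142388055-142388077 and chr7:142387908-142387937 on the minus strand, Ctsa, before its second RefSeq start, at chr2:164833749-164833772 on the plus strand, and Ctsl at chr13:64370739-64370768 on the minus strand (GRCm38.p6).
Ctsd, far: tccccCACGTGacctgtatccag
Ctsd, near: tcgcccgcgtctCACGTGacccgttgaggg
Ctsa: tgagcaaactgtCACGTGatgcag
Ctsl: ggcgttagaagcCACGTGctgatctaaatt
In GENCODE M21, the near Ctsd stretch and those of Ctsa and Ctsl lie inside the gene as listed, since the RefSeq start used is downstream of the first annotated one. All 30 bases of the near Ctsd stretch, all 24 of the Ctsa stretch and 15 of 30 of the Ctsl stretch are exon there, while the far Ctsd stretch lies outside the gene. The windows of Ctss and Cst3, which were also lower, held no E-box, and a match or its absence says nothing about whether a factor was bound in these cells.

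Cst3 (chr2:148871722-148875692) was at 582, 580.5 and 583 FPKM in the libraries labelled CKO, against 948, 938 and 931 FPKM in those labelled WT. The libraries of each group were very close to one another and the groups were far apart, with CKO the lower. The log2 difference was -0.69 ± 0.0228 (SE, adjusted p = 1.35e-10, limma), between those of Ctss and Ctsb. The 9 cathepsins together summed to 8263 ± 141 FPKM in the libraries labelled CKO and 12066 ± 144 FPKM in those labelled WT (SD, n = 3 each). The sum relative to Cst3 was 14.2 ± 0.225 in the libraries labelled CKO and 12.8 ± 0.225 in those labelled WT, with no overlap. For the 7 cysteine cathepsins, the enzymes that cystatin C inhibits, that ratio was 12.1 ± 0.203 in the libraries labelled CKO and 9.77 ± 0.0810 in those labelled WT (SD, n = 3 each). Without Ctss, the ratio over the 8 remaining cathepsins was 9.77 in the libraries labelled CKO and 8.66 in those labelled WT. By the listed gene lengths, the direction over all 9 rests on Ctsz, at 1928 FPKM in the libraries labelled CKO and 1464 FPKM in those labelled WT. With Ctsz left out, the sum relative to Cst3 by these lengths was lower in the libraries labelled CKO than in those labelled WT. For the cysteine cathepsins without Ctsz it was still higher. The 10 genes held 2.53 ± 0.0398% of all assigned reads in the libraries labelled CKO and 3.88 ± 0.0436% in those labelled WT (SD, n = 3 each).

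**Figure D2:**
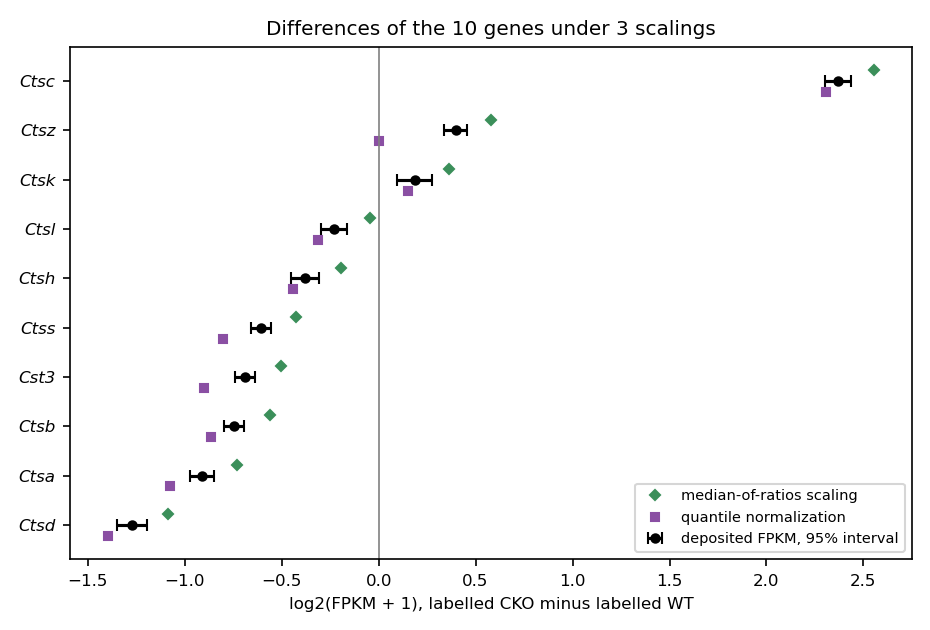
Log2 difference of each gene on log2(FPKM + 1), labelled CKO minus labelled WT, with its 95% interval (black), and the same after median-of-ratios scaling (green) and quantile normalization (purple). Ctsc lies at 2.37 and Ctsd at -1.27, Ctsl comes to -0.05 under the median of ratios, and Ctsz comes to 0 under quantile normalization.

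The make-up of the cathepsin pool differed between the groups. Ctss, Ctsb, Ctsz and Ctsd made up 92.4% of the summed cathepsin FPKM in the libraries labelled CKO and 94.8% in those labelled WT. Ctss held 31.2% in the libraries labelled CKO and 32.6% in those labelled WT, and Ctsb held 25.0% in the libraries labelled CKO and 28.8% in those labelled WT. The share of Ctsz was 23.3 ± 0.299% in the libraries labelled CKO and 12.1 ± 0.276% in those labelled WT (SD, n = 3 each). Ctsd went the other way, with 12.9 ± 0.201% in the libraries labelled CKO and 21.3 ± 0.788% in those labelled WT. Ctsc made up 2.81 ± 0.0801% in the libraries labelled CKO and 0.365 ± 0.0129% in those labelled WT (SD, n = 3 each). Ctsa held 2.07% in the libraries labelled CKO and 2.67% in those labelled WT. Although Ctsl and Ctsh were lower in FPKM, their shares were higher. Ctsl held 1.31% in the libraries labelled CKO and 1.05% in those labelled WT, and Ctsh held 0.958% in the libraries labelled CKO and 0.855% in those labelled WT. Shares sum to the whole, so a gene that fell less than the sum gains share.

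**Figure D3:**
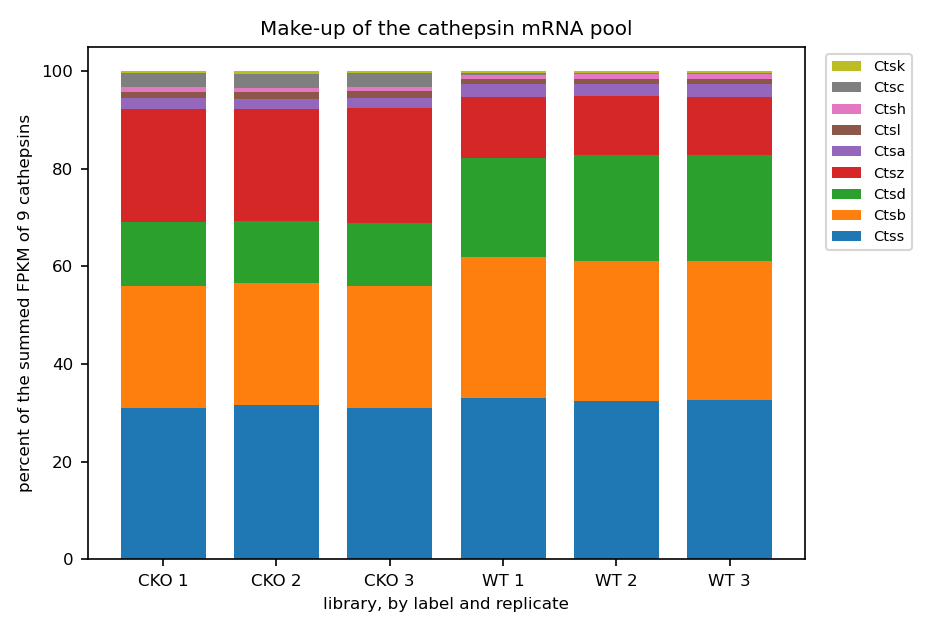
Percent of the summed FPKM of the 9 cathepsins that each gene made up, in the 3 libraries labelled CKO and then the 3 labelled WT. Ctsz (red) takes 23.3% in the libraries labelled CKO and 12.1% in those labelled WT, and Ctsd (green) takes 12.9% in the libraries labelled CKO and 21.3% in those labelled WT, with little variation among the libraries of a group.

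By FPKM, the order in the libraries labelled CKO was Ctss, Ctsb, Ctsz, Ctsd, Cst3, Ctsc, Ctsa, Ctsl, Ctsh and Ctsk, from high to low. In the libraries labelled WT it was Ctss, Ctsb, Ctsd, Ctsz, Cst3, Ctsa, Ctsl, Ctsh, Ctsc and Ctsk. The libraries of neighbouring genes overlapped nowhere in either order, the nearest pair in the libraries labelled CKO being Ctsb and Ctsz, at 2068 ± 38.5 and 1928 ± 53.1 FPKM. The order depends on the gene length that the reads were divided by. The listed length is the union of all annotated exons for all 10 genes, which for Ctsl is 3.29 times, for Ctsh 2.78 times, for Ctsc 2.33 times and for Ctsa 1.86 times the length of 1 transcript, the well-supported coding one with the most exons. This choice was made after seeing the data. For Ctsc a longer transcript with 4 in place of 7 exons would give 1.80 times. With the length of that 1 transcript, Ctsb came first in both groups, at 2638 in the libraries labelled CKO and 4426 in those labelled WT, above Ctss at 2584 in the libraries labelled CKO and 3941 in those labelled WT. On that scale Ctsl also passed Ctsa in the libraries labelled CKO, at 356 against 318. A change of length leaves the difference between groups of any 1 gene as it was, and the ratio of summed cathepsins to Cst3 was then 11.4 ± 0.169 in the libraries labelled CKO and 10.2 ± 0.173 in those labelled WT (SD, n = 3 each). With Ctsz left out, the groups overlapped in that ratio on this scale. The lower ratio without Ctsz under the CKO label, given above, thus holds for the listed lengths only.

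**Figure D4:**
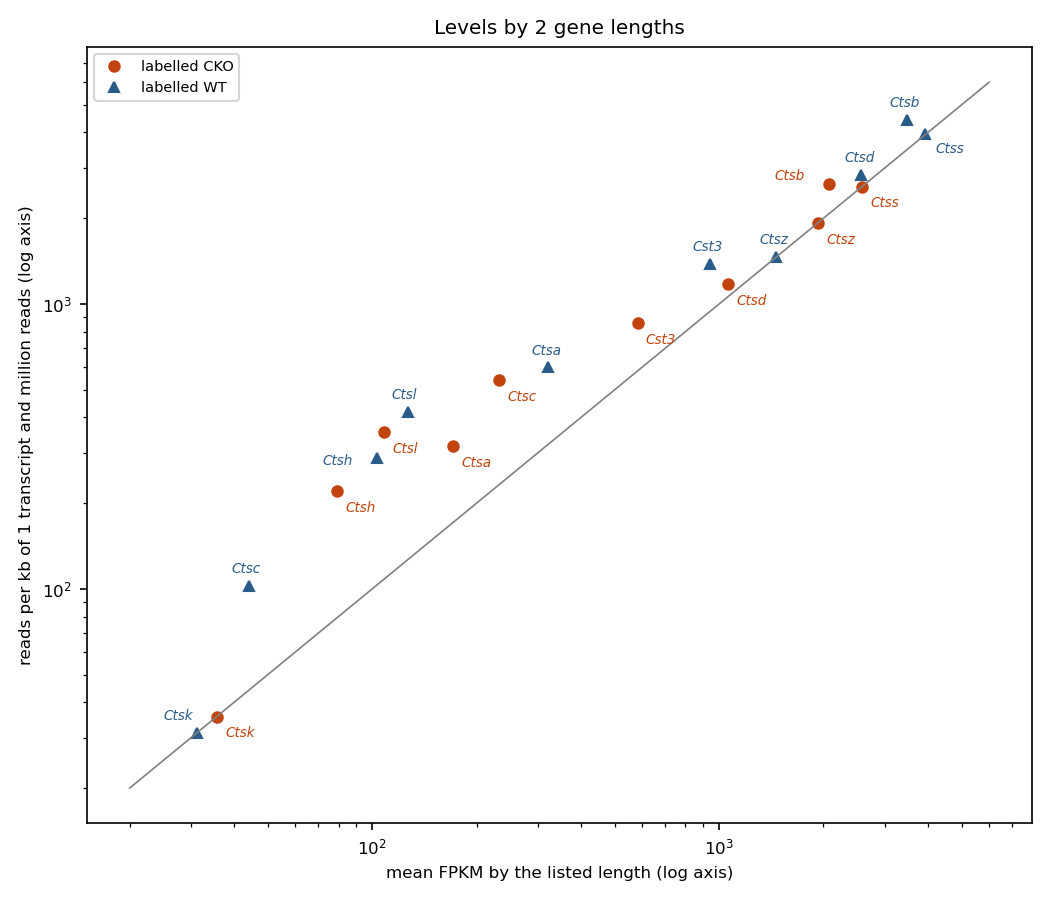
Mean level of each gene per kilobase of 1 transcript (y, log axis) against its FPKM by the listed length (x, log axis), for libraries labelled CKO (red circles) and WT (blue triangles). On the grey line both lengths agree. Ctsl, Ctsh, Ctsc and Ctsa lie farthest above it, and Ctsb lies above Ctss in both groups.

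Other genes of the pathway were taken from lists by role. Of 14 other cathepsins, 9 had no read in any library and 4 were tested, and all 4 were lower, beside 50.5% of all tested genes. Ctse, an aspartic peptidase, averaged 0.555 ± 0.0592 FPKM in the libraries labelled CKO and 9.03 ± 0.489 FPKM in those labelled WT, and Ctso averaged 9.13 ± 0.241 FPKM in the libraries labelled CKO and 13.4 ± 0.186 FPKM in those labelled WT (SD, n = 3 each). All 4 were under the level of Ctsk, the lowest of the 10. Ctsg averaged 0.139 FPKM in the libraries labelled CKO and 3.08 FPKM in those labelled WT, and Ctsf averaged 0.302 FPKM in the libraries labelled CKO and 2.51 FPKM in those labelled WT.

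With the deposited values, the other tested inhibitors were higher or were not called, unlike Cst3. Of 19 other cystatins and stefins, 17 were in the tables and 5 were tested, of which 3 were higher, none was lower and 2 were not called. Over all tested genes, 30.5% were called higher and 50.5% lower. The median log2 difference of the 5 was 2.72, beside -0.14 over all tested genes. Cst7, or cystatin F, is an inhibitor that is sorted into endosomes and lysosomes, where it acts on Ctsc among others. It was at 58.9, 57.5 and 61.5 FPKM in the libraries labelled CKO, against 6.61, 5.82 and 6.39 FPKM in those labelled WT. Cst7 was thus higher in every library labelled CKO, with a log2 difference of 3.05 (adjusted p = 2.75e-13, limma). Ctsc and Cst7 were both higher, and the ratio of Ctsc to Cst7 FPKM was 3.92 ± 0.194 in the libraries labelled CKO and 7.03 ± 0.331 in those labelled WT (SD, n = 3 each).

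Cstb, the stefin that inhibits cysteine cathepsins in the cytosol, was at 743, 756 and 795 FPKM in the libraries labelled CKO, against 788, 776 and 779 FPKM in those labelled WT. The groups overlapped, and the log2 difference was -0.03 with a 95% interval from -0.09 to 0.03 and an adjusted p of 0.340 in limma. Its direction flips with the scaling, at 0.15 with the median of ratios and -0.29 with quantile normalization, both called. By the listed lengths, Cstb was thus above Cst3 in the libraries labelled CKO, where Cst3 averaged 582 FPKM, and below it in those labelled WT, where Cst3 averaged 939 FPKM. That order depends on the lengths used. With the length of 1 transcript, Cst3 came to 857 in the libraries labelled CKO, and Cstb was not computed on that scale. The ratio of summed cathepsins to Cstb was 10.8 ± 0.197 in the libraries labelled CKO and 15.5 ± 0.302 in those labelled WT (SD, n = 3 each), opposite in direction to the ratio to Cst3. Of the stefin A genes, 2 were higher. Stfa3 had 141 reads over the libraries labelled CKO and none in those labelled WT, which is at least 49.5-fold higher against a floor of 3 reads over the group, and Csta2 averaged 5.803 FPKM in the libraries labelled CKO and 0.0283 FPKM in those labelled WT. The stefin A genes are near-identical copies, so reads may have been split among them and their single values are uncertain. Such floors cover counting error only.

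Of 15 genes for cathepsin maturation and transport, 2 were higher and 13 lower, with a median log2 difference of -0.65. Over all tested genes, 30.5% were called higher and 50.5% lower, with a median of -0.14, and the same holds as background for the lists that follow. M6pr, the cation-dependent mannose 6-phosphate receptor, was at 212, 219 and 218 FPKM in the libraries labelled CKO, against 97.8, 97.1 and 97.0 FPKM in those labelled WT, a log2 difference of 1.14 (adjusted p = 7.22e-12, limma). Gnptab, which builds the transferase that adds the mannose 6-phosphate tag and was named after its values were seen, averaged 21.9 ± 0.430 FPKM in the libraries labelled CKO and 18.0 ± 0.277 FPKM in those labelled WT (SD, n = 3 each). Other genes of the same route, likewise named after their values were seen, were lower. The larger receptor Igf2r was at 33.4 ± 2.40 FPKM in the libraries labelled CKO and 61.3 ± 0.357 FPKM in those labelled WT. Gnptg, another subunit of that transferase, was at 6.86 ± 0.207 FPKM in the libraries labelled CKO and 11.3 ± 0.221 FPKM in those labelled WT, and Nagpa, which uncovers the tag, was at 28.7 ± 0.804 FPKM in the libraries labelled CKO and 43.5 ± 1.61 FPKM in those labelled WT (SD, n = 3 each).

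Psap, whose protein prosaposin gives the activators of sphingolipid breakdown and binds the precursor of Ctsd, was at 4591, 4613 and 4701 FPKM in the libraries labelled CKO, against 8370.4, 8334 and 8389.96 FPKM in those labelled WT. It was lower in each library labelled CKO, and its log2 difference was -0.85 (adjusted p = 1.95e-11, limma). Lgmn, the legumain that cuts cathepsin precursors into their shorter mature chains, averaged 243 ± 3.93 FPKM in the libraries labelled CKO and 492 ± 14.9 FPKM in those labelled WT (SD, n = 3 each). Lrp1, a receptor that takes up secreted enzymes and precursors, averaged 103 ± 5.45 FPKM in the libraries labelled CKO and 183 ± 2.54 FPKM in those labelled WT. Vps26a, of the retromer that recycles sorting receptors, averaged 56.7 ± 0.845 FPKM in the libraries labelled CKO and 82.2 ± 2.71 FPKM in those labelled WT (SD, n = 3 each). The calls of Cd74 and of Gga1, which was named after its values were seen, were lost with median-of-ratios scaling.

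Among 7 other lysosomal peptidases, 6 were tested and all 6 were lower, with a median of -0.86, beside 50.5% and -0.14 over all tested genes. Tpp1, a tripeptidyl peptidase, averaged 57.1 ± 1.008 FPKM in the libraries labelled CKO and 109 ± 0.745 FPKM in those labelled WT, and Dpp7, a dipeptidyl peptidase, averaged 20.4 ± 1.66 FPKM in the libraries labelled CKO and 73.7 ± 2.29 FPKM in those labelled WT (SD, n = 3 each). Scpep1, a serine carboxypeptidase related to Ctsa, averaged 164 ± 4.69 FPKM in the libraries labelled CKO and 183 ± 4.64 FPKM in those labelled WT. Its log2 difference was -0.15 with the deposited values and 0.03 with the median of ratios, where the call was lost (adjusted p = 0.457, limma).

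Of 9 serine proteases that Ctsc is known to activate, 3 were tested, and Elane, Prtn3 and Ctsg were all lower, Ctsg being also among the other cathepsins above. Elane, neutrophil elastase, was at 0, 0 and 0.0571 FPKM in the libraries labelled CKO, against 7.56, 7.31 and 6.71 FPKM in those labelled WT. Prtn3 averaged 0.884 ± 0.273 FPKM in the libraries labelled CKO and 3.29 ± 0.781 FPKM in those labelled WT (SD, n = 3 each). Ctsc was thus higher where these substrates were lower. Markers of neutrophils moved with them, since 8 of 10 reached 1 FPKM, 7 were lower and none higher, and their summed level was 68.2 to 83.6 FPKM in the libraries labelled CKO and 614 to 900.4 FPKM in those labelled WT. Retnlg had no read in any library labelled CKO and 1.72 to 4.70 FPKM in those labelled WT. Ly6g was listed at 0 in all 3 libraries labelled CKO and in 2 of the 3 labelled WT, and Elane is on both lists. Their part in the protease results was not tested.

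Of 10 transcription factors known to act on cathepsin genes, 5 were higher, 3 lower and 2 not called, with a median of 0.14. Spi1, the PU.1 factor, was at 133, 137 and 136 FPKM in the libraries labelled CKO, against 136, 142 and 141 FPKM in those labelled WT, and was not called (log2 difference -0.04, adjusted p = 0.168, limma). Its direction flips with the scaling, at 0.14 with the median of ratios and -0.15 with quantile normalization, both called. Irf1, an interferon-induced factor, was at 50.2, 50.5 and 55.6 FPKM in the libraries labelled CKO, against 14.5, 11.998 and 12.5 FPKM in those labelled WT. Irf1 was thus higher in each library labelled CKO, with a log2 difference of 1.93 (adjusted p = 1.31e-10, limma). Irf8 averaged 25.2 ± 0.850 FPKM in the libraries labelled CKO and 36.2 ± 1.73 FPKM in those labelled WT (SD, n = 3 each).

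The E-box factors of the MiT family did not move together. Tfeb, the main known activator of lysosomal genes, averaged 3.48 ± 0.117 FPKM in the libraries labelled CKO and 19.0 ± 0.648 FPKM in those labelled WT (SD, n = 3 each), a log2 difference of -2.16 (adjusted p = 3.56e-12, limma). Tfeb was named after its values were seen. Mitf averaged 21.9 ± 0.786 FPKM in the libraries labelled CKO and 15.0 ± 0.412 FPKM in those labelled WT (SD, n = 3 each), with a log2 difference of 0.52 (adjusted p = 3.47e-07, limma). Tfe3 averaged 19.3 ± 0.130 FPKM in the libraries labelled CKO and 18.5 ± 0.310 FPKM in those labelled WT and was not called (log2 difference 0.06, adjusted p = 0.149, limma), though it was called higher with the median of ratios, at 0.23. Tfec, also named after its values were seen, averaged 6.95 ± 0.278 FPKM in the libraries labelled CKO and 5.83 ± 0.325 FPKM in those labelled WT (SD, n = 3 each). It was called higher, with a log2 difference of 0.22 (adjusted p = 0.00282, limma).

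Of 9 partners of Ctss and Ctsl in antigen processing, 8 were in the tables and 7 tested, of which 3 were higher, 3 lower and 1 not called. Cd74, the invariant chain that Ctss trims and also on the list for transport, was at 142, 139 and 154 FPKM in the libraries labelled CKO, against 169, 164 and 172 FPKM in those labelled WT. The log2 difference of -0.22 (adjusted p = 0.000387, limma) was lost with the median of ratios, where it was -0.03. H2-Ab1, a class II chain, was at 61.2, 61.7 and 63.5 FPKM in the libraries labelled CKO, against 38.1, 36.4 and 38.3 FPKM in those labelled WT. H2-Ab1 was higher in every library labelled CKO, with a log2 difference of 0.71 (adjusted p = 3.16e-09, limma), while Ctss and Cd74 were lower. H2-Aa, the other chain of the same class II molecule, averaged 24.0 ± 1.63 FPKM in the libraries labelled CKO and 26.4 ± 0.921 FPKM in those labelled WT (SD, n = 3 each), and its call was lost with the median of ratios, where its direction was the opposite.

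**Figure D5:**
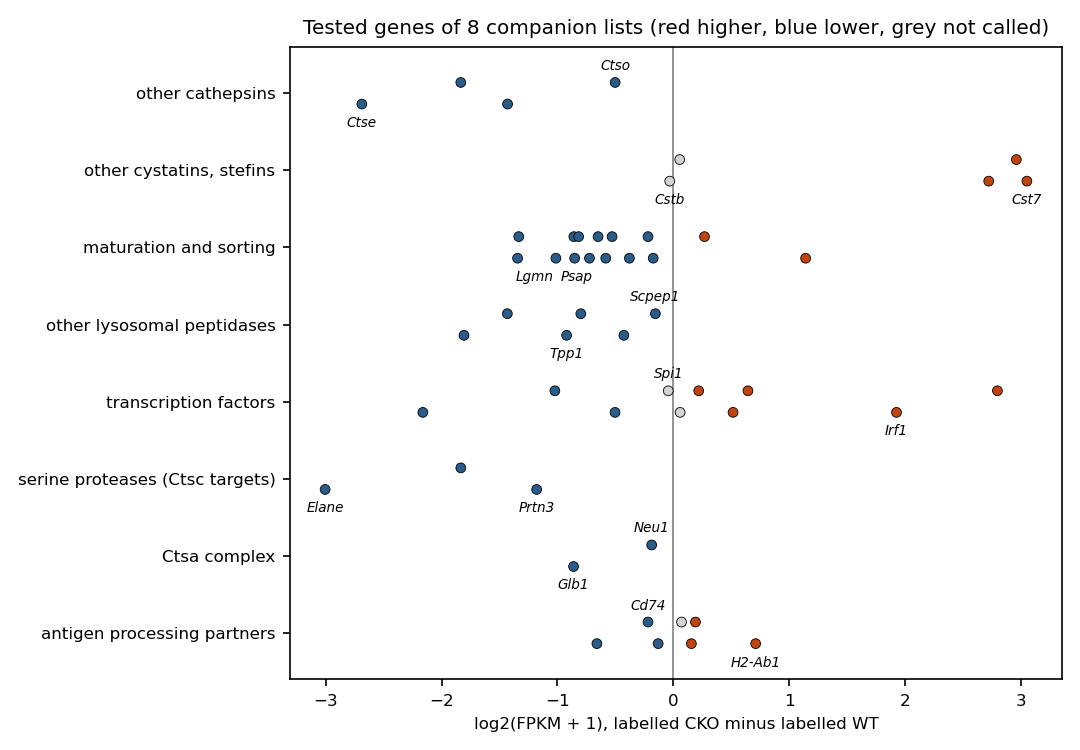
Log2 difference, labelled CKO minus labelled WT, of the tested genes of the 8 lists, each dot being 1 gene and the height within a list serving only to separate dots. Red dots were called higher, blue dots called lower and grey dots not called, and the 2 genes of highest level in each list are named. The other cathepsins and the other lysosomal peptidases lie left of 0, and 3 cystatins and stefins lie far right of it.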

How the data were processed

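The authors deposited 1 table per library of FPKM values, per the file headers, with gene lengths and GRCm38 coordinates. The submitters' processing notes name, without saying what each did, featureCounts 1.6.2 for one, then GATK 4.0.11.0, HISAT2 2.1.0, DESeq2 1.22.1, Cufflinks, fastp 0.19.3 and StringTie 1.3.4d, and the genome build mm10. The libraries were stranded per the labels' protocols. FPKM times length gave whole reads for 100% of values within 0.01 reads, and these reads gave the depths. Groups and replicate numbers come from the sample titles.

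A gene was tested when 3 or more libraries had 1 FPKM or more. The test was run on log2(FPKM + 1) with limma 3.58.1 in R 4.3.3 (lmFit, eBayes with trend, group as the only term), and p-values were adjusted by Benjamini-Hochberg over all tested genes. It was checked on simulated reads with a coefficient of variation of 0.02 and 50 genes changed at each fold. Changes of 1.10, 1.25, 1.50 and 2.00-fold were called for 26%, 76%, 98% and 100% of these genes. Of all calls, 6.25% were unchanged genes. Few genes changed in that simulation, so it does not cover data in which most genes are called. Sums and figures used Python 3.11.15 with matplotlib 3.10.9, scipy 1.17.1, pandas 2.3.3 and numpy 2.4.6. The members, companion lists and markers were chosen with earlier results of these data known. Named from each companion list were at most the 6 genes of highest mean FPKM, besides those said to have been chosen after their values were seen. The chi-square per degree of freedom of the reads was 2.16 to 3.18 between libraries of a group, so none agreed within counting noise. Transcript lengths and shared exons come from GENCODE M21, and promoter windows from RefSeq. Alternatives were the replicate block, leaving out each library, pseudocounts of 0.1 and 0.5, no filter, a minimum mean of 5 FPKM, quantile normalization, median-of-ratios scaling, no trend, and limma voom on the recovered reads.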

Additional observations from a re-analysis of the deposited data

How the results depend on the processing

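All 10 genes kept their direction and call in 148 of 150 gene-by-alternative settings. The exceptions were Ctsl with the median of ratios (-0.05) and Ctsz with quantile normalization (0), the cause of which is the scaling itself, since each changes only that. Of the alternatives, only these and limma voom rescaled the libraries, so the other settings do not bear on the scaling. With limma voom, Ctsl kept its call at a log2 difference of -0.07 (adjusted p = 0.0222). Leaving out 1 library left 3 genes higher and 7 lower, and over all tested genes gave 2910 to 2961 higher and 4853 to 4952 lower, beside 3038 and 5031. With the replicate number as a block the counts were 3018 and 5023, with 3 and 7 of the 10. Deviations of libraries with the same number correlated at only 0.02, 0.01 and -0.04. No pairing by number was seen, though so few libraries cannot exclude a weak one. Of the calls, 37.7% were higher with the deposited scaling and 51.2% with the median of ratios (4058 higher, 3874 lower). With mean FPKM of at least 5, fewer genes were tested and 3185 were called lower.

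Among the lists, Cstb was the 1 cystatin called lower with quantile normalization and without CKO replicate 3 (0 to 1 over the libraries left out). With the median of ratios 1 gene of the Ctsa complex and 1 antigen processing partner were lower. The summed cathepsin FPKM differed by -2500 with the median of ratios, -2142 over cysteine cathepsins and -2449 without Ctss, and the ratio to Cst3 by 2.31 over cysteine cathepsins and 1.105 without Ctss. Leaving out 1 library gave -3879 to -3725 and 1.221 to 1.457. With 3 libraries per group, small differences such as that of Ctsk rest on few values, and depth was not limiting at these levels.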
